A study of Mus musculus with 9 samples.

Results

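The genes described here are 10 feedback regulators of NF-kB and MAPK signalling, chosen by symbol: Nfkbia, Tnfaip3, Nfkbiz, Bcl3, Nfkb1, Nfkb2, Relb, Zfp36, Dusp1 and Ier3. They and the gene lists below were chosen with earlier results of these data known, so shares of all genes beside them are a description. Each symbol matched 1 Ensembl gene ID of the 53379 in the count files, and all 10 were among the 17478 genes with enough counts to be tested. RNA came from whole knee joints of male C57BL/6 mice in a surgical model of osteoarthritis, made by cutting the anterior cruciate ligament (ACLT). The PC2 group had ACLT at 8 weeks of age, a lentivirus expressing PC2 in the joint 1 week later, and joint collection 8 weeks after the virus. The Luc group had the same operation and schedule with a lentivirus expressing Luc. The Non surgery group was labelled as having no operation, and the labels state no age or injection for it. Each group has 3 libraries made from 1 mixture of RNA, so every p-value below measures technical spread and takes no account of variation among animals. How many mice went into a mixture is not stated in the labels.

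NF-kB is a family of transcription factors that inhibitor proteins hold in the cytoplasm until kinases activated by cytokines, microbial products or tissue damage mark those inhibitors for breakdown. MAP kinases run in parallel, from the same receptors and from mechanical and growth factor signals. Both pathways switch on the genes that end their own signal. Nfkbia encodes the classical inhibitor that recaptures NF-kB, Tnfaip3 a ubiquitin-editing enzyme that stops signalling upstream of the kinases, Zfp36 a protein that binds AU-rich mRNAs and speeds their decay, and Dusp1 a phosphatase that inactivates p38 and JNK kinases. In synovium and cartilage these pathways are known for driving the production of cytokines and matrix-degrading enzymes.

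Promoter sequences are shown for 5 of the regulators because they carry matches to the binding motifs of the factors these pathways end in. They are RefSeq sequences of build GRCm38.p6, from 250 bases before to 50 bases after the annotated start, and the table held such a sequence for 7 of the 10 genes. In the first 4 the capitals mark matches to the NF-kB consensus motif on either strand, and in Dusp1 they mark the core of the CRE motif, TGACG, on either strand. The CRE is the element bound by CREB and ATF proteins.
Nfkbia (chr12:55492598-55492897, minus strand): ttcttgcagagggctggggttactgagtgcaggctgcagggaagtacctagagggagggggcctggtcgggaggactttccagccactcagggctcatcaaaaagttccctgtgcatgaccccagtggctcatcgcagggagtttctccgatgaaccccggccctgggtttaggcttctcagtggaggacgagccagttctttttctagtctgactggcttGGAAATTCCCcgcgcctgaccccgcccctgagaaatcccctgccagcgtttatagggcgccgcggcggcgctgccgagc
Tnfaip3 (chr10:19015361-19015660, minus strand): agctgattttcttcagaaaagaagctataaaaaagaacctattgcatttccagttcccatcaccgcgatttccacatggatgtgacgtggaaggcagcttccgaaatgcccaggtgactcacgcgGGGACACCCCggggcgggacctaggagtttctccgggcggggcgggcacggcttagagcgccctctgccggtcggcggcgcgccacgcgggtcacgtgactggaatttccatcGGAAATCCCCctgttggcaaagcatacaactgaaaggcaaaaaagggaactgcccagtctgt
Ier3 (chr17:35821463-35821762, plus strand): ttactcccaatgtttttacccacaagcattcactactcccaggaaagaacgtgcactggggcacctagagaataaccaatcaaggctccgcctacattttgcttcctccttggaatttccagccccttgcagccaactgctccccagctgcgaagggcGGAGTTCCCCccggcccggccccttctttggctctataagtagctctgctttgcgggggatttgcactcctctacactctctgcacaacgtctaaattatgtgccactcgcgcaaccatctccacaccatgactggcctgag
Nfkb2 (chr19:46304487-46304786, plus strand): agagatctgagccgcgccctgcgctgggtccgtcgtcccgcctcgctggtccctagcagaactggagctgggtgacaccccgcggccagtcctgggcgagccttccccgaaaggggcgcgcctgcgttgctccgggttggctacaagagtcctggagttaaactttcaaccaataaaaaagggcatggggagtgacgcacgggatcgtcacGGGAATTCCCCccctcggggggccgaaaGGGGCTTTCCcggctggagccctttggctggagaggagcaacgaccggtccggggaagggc
Dusp1 (chr17:26508423-26508722, minus strand): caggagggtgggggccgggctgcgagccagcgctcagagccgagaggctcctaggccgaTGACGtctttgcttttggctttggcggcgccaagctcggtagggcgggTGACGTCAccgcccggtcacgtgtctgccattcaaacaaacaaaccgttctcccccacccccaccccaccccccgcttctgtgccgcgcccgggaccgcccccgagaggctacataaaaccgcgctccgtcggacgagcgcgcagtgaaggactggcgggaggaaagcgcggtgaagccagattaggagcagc
The NF-kB consensus matched in 5 of the 7 promoters, those of the first 4 and of Bcl3, against 4.5% of 32817 promoters of this length. In Nfkb2 a pair of the 3 matches overlap each other. TGACG matched in Dusp1, Tnfaip3 and Nfkb2, against 20.8% of all promoters, and a pair of the 3 matches in Dusp1 overlap to form a longer palindrome. The AP-1 motif TGANTCA matched in Tnfaip3 only (7.81% of all promoters), and the CArG box, the motif of serum response factor, in Zfp36 only (1.63%). A match here is a run of letters in this window and was not tested for binding.

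Each library held 17835989 to 19004316 counts in genes, and the 10 regulators had between 194 and 7000 counts in each library. Levels are given as counts per 1000000 (CPM) on TMM-scaled library sizes. A gene rose or fell where edgeR's quasi-likelihood test gave an adjusted p under 0.05, and changes of at least 2-fold are counted apart because technical spread lets small differences pass. In bulk tissue, fewer cells of a type and less RNA per cell cannot be told apart.

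The first comparison sets operated joints that received the Luc virus against joints that were not operated on. The operation, the injection and the RNA mixture differ together here and cannot be told apart. In Luc libraries 9 of the 10 regulators rose and none fell, led by Dusp1, Zfp36 and Nfkbiz at 5.81-fold, 4.8-fold and 3.98-fold. Those 3 and Ier3 passed the 2-fold limit, while the NF-kB subunits rose by at most 1.21-fold and Nfkbia did not pass. Among all genes tested, 31.1% rose, 27.7% fell and 9.43% rose at least 2-fold. The median log2 fold change of the 10 genes was 0.55, against 0.025 for all genes. Luc and Non surgery libraries were fully separate for 9 of the 10, as for 62.9% of all genes (either direction).

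The second comparison sets PC2 against Luc among operated joints. The virus and the RNA mixture differ together here and cannot be told apart. In PC2 libraries 7 of the 10 regulators fell and none rose, with Nfkbiz 2.54-fold lower and Dusp1, Tnfaip3, Ier3 and Zfp36 between 1.54-fold and 1.66-fold lower. Nfkbia and Nfkb1 fell by less, and Bcl3, Nfkb2 and Relb did not pass. Among all genes tested, 16.1% rose and 18.6% fell, and 2% fell at least 2-fold, which of the regulators Nfkbiz alone did. The median log2 fold change of the 10 was -0.44, against 0.0080 for all genes. PC2 and Luc libraries were fully separate for 7 of the 10, as for 48% of all genes.

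The third comparison sets PC2 against Non surgery, and it shares libraries with both of the others. As in the first, the operation, the injection and the RNA mixture differ together. In PC2 libraries 7 of the regulators rose and 1, Nfkbia, fell, against 31.5% and 31.2% of all genes. Zfp36 and Dusp1 rose 3.11-fold and 3.49-fold, past a 2-fold rise that 9.83% of all genes reached. Tnfaip3 and Nfkb2 did not pass. The libraries were fully separate for 8 of the 10, as for 66% of all genes.

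**Figure D1:**
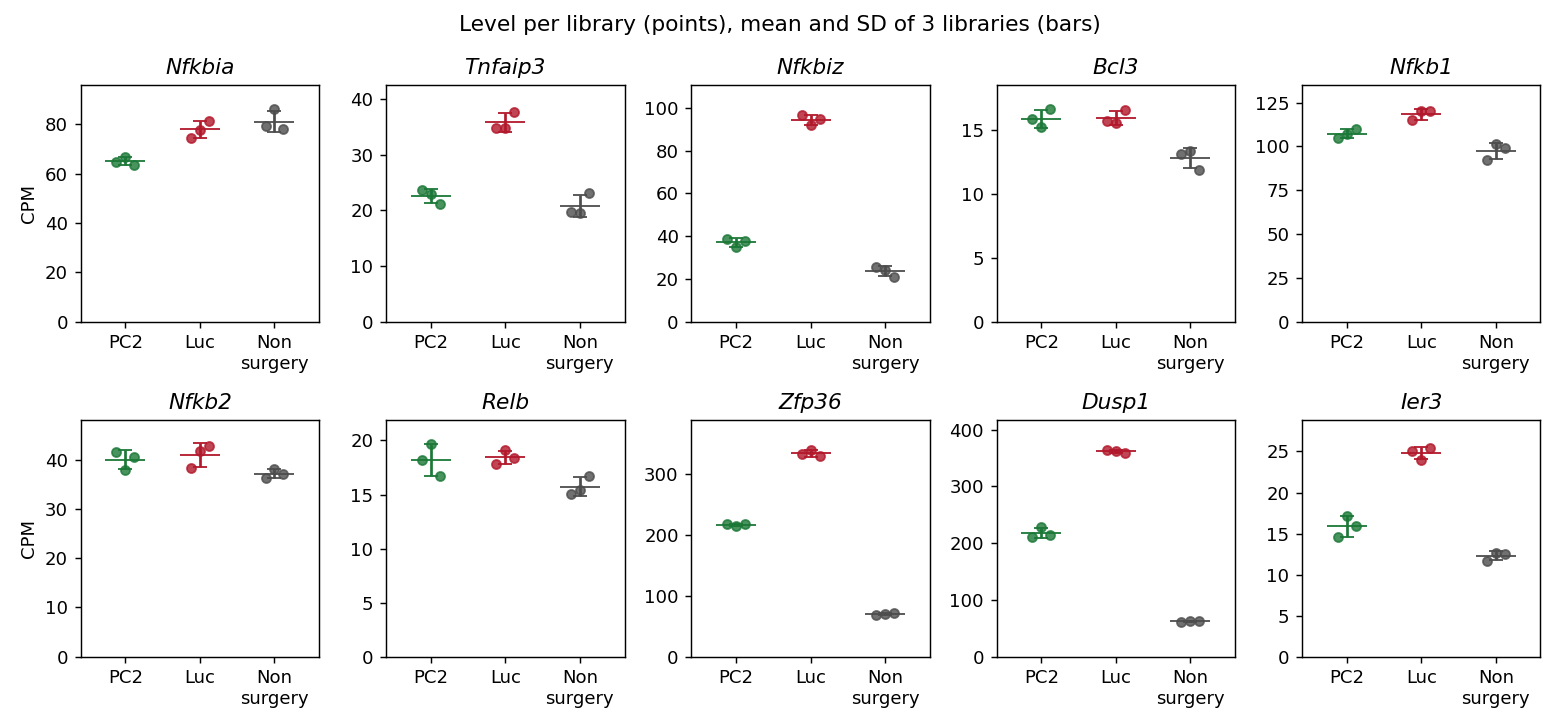
Level of each regulator in CPM (vertical axis, starting at 0) in PC2, Luc and Non surgery libraries, with each library as a point and the mean and SD of 3 libraries as bars. Dusp1, Zfp36, Nfkbiz, Ier3, Tnfaip3 and Nfkb1 are highest in Luc libraries with no overlap between Luc and either other group. Nfkbia is lowest in PC2 libraries.

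Zfp36 and Dusp1, which act after transcription and on the kinases, showed the largest rises and were the most abundant of the 10 in operated joints. Zfp36 (GRCm38 chromosome 7, 28376784 to 28380253) was at 218.7, 214.9 and 217.6 CPM in PC2 libraries, 333.6, 341.0 and 330.3 CPM in Luc libraries and 67.7, 70.4 and 71.1 CPM in Non surgery libraries. The 3 groups stood fully apart, with PC2 between the others. Its log2 fold change was 2.26 ± 0.034 for Luc against Non surgery (SE, adjusted p = 7.48e-18, edgeR), and it fell by 0.63 ± 0.032 on the log2 scale in PC2 against Luc (adjusted p = 3.91e-10).

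Dusp1 (chromosome 17, 26505590 to 26562128) had 210.3, 227.6 and 214.3 CPM in PC2 libraries, against 363.8, 362.3 and 358.3 CPM in Luc and 61.6, 62.2 and 62.8 CPM in Non surgery libraries. No library of one group reached another, and the Luc and Non surgery libraries varied by under 1% (coefficients of variation 0.794% and 0.976%). The log2 fold change was 2.54 ± 0.037 for Luc against Non surgery (adjusted p = 5.31e-18), and Dusp1 fell by 0.73 ± 0.034 on the log2 scale in PC2 against Luc (adjusted p = 1.51e-10).

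Ier3, an early response gene whose product modulates ERK signalling and cell survival, moved in the same directions at a lower level. Ier3 (chromosome 17, 35821684 to 35822923) had 14.6, 17.15 and 15.9 CPM in PC2 libraries, 25.0, 23.95 and 25.4 CPM in Luc libraries and 11.6, 12.7 and 12.6 CPM in Non surgery libraries. Luc stood above PC2 and PC2 above Non surgery in every library. Its rise in Luc was 2.02-fold (log2 1.01 ± 0.078, adjusted p = 7.05e-09), at the edge of the 2-fold limit, and alternative settings placed it between 0.97 and 1.17 on the log2 scale. Its fall in PC2 against Luc was 1.56-fold (adjusted p = 5.36e-06).

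The nuclear members of the inhibitor family, which bind NF-kB on DNA rather than hold it in the cytoplasm, differed from each other. Nfkbiz (chromosome 16, 55811375 to 55838899), needed in mouse macrophages for a later wave of genes such as Il6, had 38.8, 34.96 and 37.7 CPM in PC2 libraries, 96.5, 91.8 and 95.0 CPM in Luc libraries and 25.7, 24.3 and 21.0 CPM in Non surgery libraries. The groups did not overlap, and PC2 lay nearer to Non surgery than to Luc. Its rise in Luc was 3.98-fold (log2 1.99 ± 0.063, adjusted p = 6.02e-14) and its fall in PC2 against Luc 2.54-fold (adjusted p = 7.67e-11). PC2 libraries were 1.57-fold above Non surgery (adjusted p = 2.42e-07).

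Bcl3 (chromosome 7, 19808462 to 19822770), a coactivator of p50 and p52 dimers, had 15.9, 15.2 and 16.6 CPM in PC2 libraries, 15.7, 15.6 and 16.6 CPM in Luc libraries and 13.1, 13.4 and 11.9 CPM in Non surgery libraries. Both operated groups lay above Non surgery and overlapped each other. Bcl3 rose 1.25-fold in Luc (adjusted p = 0.00235) and 1.24-fold in PC2 (adjusted p = 0.00243) against Non surgery, and PC2 against Luc gave a log2 fold change of -0.0051 ± 0.075 (adjusted p = 0.97). A gene on the opposite strand shares 6.51% of its exon bases.

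The inhibitors Tnfaip3 and Nfkbia also parted. Tnfaip3 (chromosome 10, 19000910 to 19015657) had 23.6, 22.9 and 21.2 CPM in PC2 libraries, 34.8, 34.8 and 37.7 CPM in Luc libraries and 19.8, 19.6 and 23.1 CPM in Non surgery libraries. PC2 and Non surgery libraries overlapped, and Luc lay above both. Tnfaip3 rose 1.72-fold in Luc (log2 0.78 ± 0.072, adjusted p = 7.47e-08) and fell 1.58-fold in PC2 against Luc (adjusted p = 2.08e-06), and its log2 fold change for PC2 against Non surgery was 0.12 ± 0.075 (adjusted p = 0.192). That last value passed without Non surgery replicate 3 (log2 0.19, adjusted p = 0.0348) and with scaling by library size only (log2 0.27, adjusted p = 0.00461).

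Nfkbia (chromosome 12, 55489410 to 55492647) had 64.8, 66.7 and 63.6 CPM in PC2 libraries, 74.5, 77.7 and 81.5 CPM in Luc libraries and 79.3, 86.1 and 77.9 CPM in Non surgery libraries. PC2 was below every other library, while Luc and Non surgery overlapped. For Luc against Non surgery the log2 fold change was -0.058 ± 0.047 (adjusted p = 0.306), a sign that turned when libraries were scaled by size only (0.10, adjusted p = 0.08). Nfkbia fell 1.2-fold in PC2 against Luc (adjusted p = 0.000463) and 1.25-fold against Non surgery (adjusted p = 1.98e-05).

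Nfkb1, Nfkb2 and Relb, which encode NF-kB subunits, changed by at most 1.21-fold in any comparison. Nfkb1 (chromosome 3, 135584655 to 135691547), which encodes the precursor of p50, had 104.8, 107.2 and 109.9 CPM in PC2 libraries, 114.9, 120.1 and 120.1 CPM in Luc libraries and 92.5, 101.2 and 98.95 CPM in Non surgery libraries. Luc was highest and Non surgery lowest, with no overlap. It rose 1.21-fold in Luc against Non surgery (adjusted p = 2.19e-05) and fell 1.1-fold in PC2 against Luc (adjusted p = 0.0142). The fall lost its call without Luc replicate 2 (adjusted p = 0.0595), without Luc replicate 3 (0.0591) and without PC2 replicate 1 (0.0679). The 1.1-fold rise in PC2 against Non surgery (adjusted p = 0.00895) was lost without Non surgery replicate 1 (0.0587).

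Nfkb2 (chromosome 19, 46304320 to 46312385), which encodes the precursor of p52, had 41.6, 37.9 and 40.6 CPM in PC2 libraries, 38.3, 41.9 and 42.9 CPM in Luc libraries and 36.3, 38.1 and 37.1 CPM in Non surgery libraries. The lowest Luc library was just above the highest Non surgery library. Its 1.1-fold rise in Luc (adjusted p = 0.0372) was lost with DESeq2 (adjusted p = 0.199), with median-of-ratios factors (0.072), without the filter (0.082), with only the 2 groups in the fit (0.0881) and in the fits without Non surgery replicate 1 or 3, Luc replicate 2 or 3, or PC2 replicate 3 (adjusted p = 0.121, 0.0846, 0.117, 0.162 and 0.0523). Overlapping genes, both on the opposite strand, share 18.1% of its exon bases. With no stated strand setting, how reads from those bases were counted is not known. For PC2 against Non surgery its log2 fold change was 0.11 ± 0.055 (adjusted p = 0.107), which passed with scaling by library size only (0.000605) and with totals that left out muscle and mitochondrial genes (0.022).

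Relb (chromosome 7, 19606217 to 19629438), the partner of p52 in the noncanonical pathway, had 18.2, 19.7 and 16.7 CPM in PC2 libraries, 17.8, 19.1 and 18.4 CPM in Luc libraries and 15.05, 15.4 and 16.7 CPM in Non surgery libraries. The operated groups overlapped, with their lowest libraries near the highest Non surgery library. Relb rose 1.17-fold in Luc (adjusted p = 0.0205), a call lost with DESeq2 (adjusted p = 0.114) and without Non surgery replicate 1 or 2 or Luc replicate 2 (adjusted p = 0.0791, 0.0559 and 0.0703). In PC2 against Non surgery it rose 1.16-fold (adjusted p = 0.0288), a call lost with DESeq2 (0.12) and without Non surgery replicate 1 or 2 or PC2 replicate 2 (0.1, 0.0701 and 0.155). For PC2 against Luc, log2 fold changes were -0.036 ± 0.054 for Nfkb2 (adjusted p = 0.655) and -0.017 ± 0.077 for Relb (adjusted p = 0.888).

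**Figure D2:**
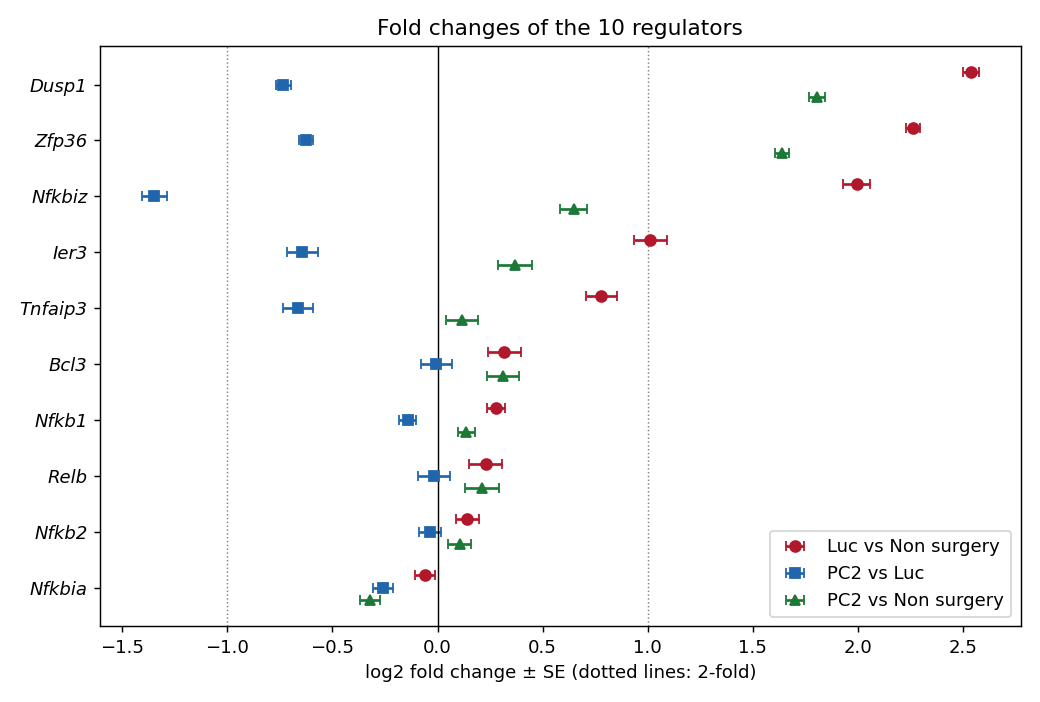
Log2 fold change ± SE (horizontal axis) of the 10 regulators, ordered by Luc against Non surgery, in the 3 comparisons. Dusp1, Zfp36 and Nfkbiz lie furthest right for Luc against Non surgery, Nfkbiz lies furthest left for PC2 against Luc at -1.35, and Bcl3, Nfkb2 and Relb sit at about 0 for PC2 against Luc.

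The order of the genes by level differed between groups. On a scale of CPM per kb of merged exon, which allows genes to be compared, Dusp1, Zfp36 and Nfkbia were the 3 highest in every group. In PC2 libraries Dusp1 led at 65.7 ± 2.72 CPM per kb (SD, n = 3, as for the levels that follow), followed by Zfp36 at 62.55 ± 0.571 and Nfkbia at 40.4 ± 0.967. In Luc libraries the order was the same, with Dusp1 at 109.2 ± 0.867 CPM per kb, Zfp36 at 96.5 ± 1.58 and Nfkbia at 48.4 ± 2.18. Nfkbia led in Non surgery libraries at 50.4 ± 2.71 CPM per kb, above Zfp36 at 20.1 ± 0.514 and Dusp1 at 18.8 ± 0.183. Neighbours in these orders overlapped in their libraries for Nfkb1 and Nfkb2 in PC2, for Tnfaip3 and Relb in Luc, and for Nfkb2 and Nfkb1, Bcl3 and Nfkbiz, and Nfkbiz and Relb in Non surgery. Tnfaip3 was lowest in PC2 and Non surgery libraries, at 3.12 ± 0.17 and 2.88 ± 0.277 CPM per kb. Merged exons can hold more bases than any 1 transcript, which makes a level on this scale a low estimate. Those of Nfkb1 span 12061 bases, of Tnfaip3 7226 and of Dusp1 3311. Those of Zfp36 span 3470 bases, its whole annotated locus. The order of Dusp1 and Zfp36 and the low place of Tnfaip3 therefore depend on these lengths.

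**Figure D3:**
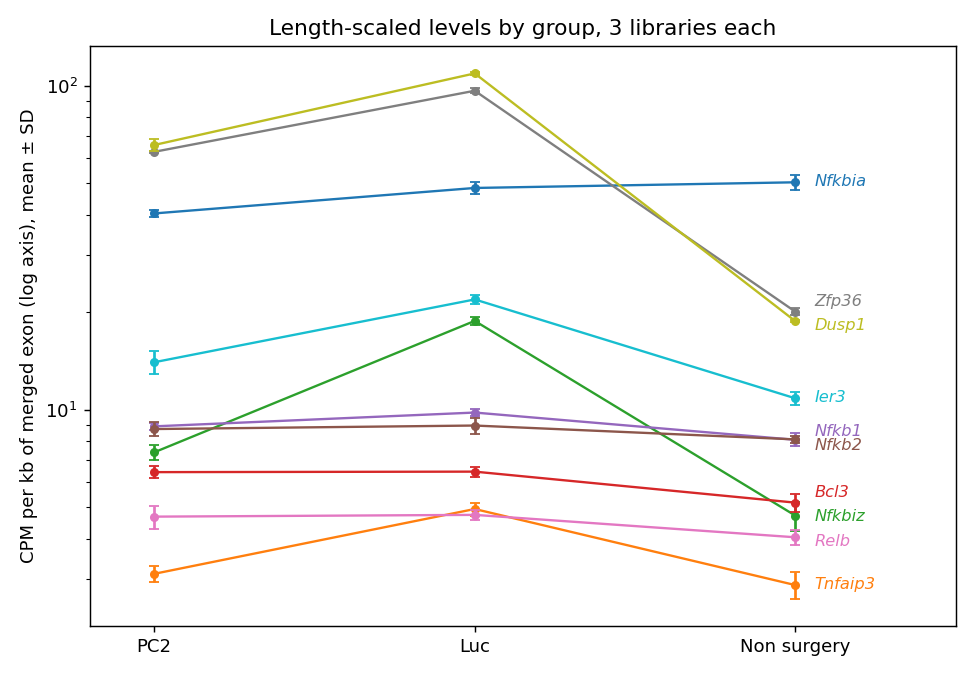
Mean level ± SD of each regulator in CPM per kb of merged exon (log axis) in PC2, Luc and Non surgery libraries, 3 each. The lines of Dusp1 and Zfp36 cross that of Nfkbia between Luc and Non surgery, where Nfkbia is the highest of the 10.

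The mRNAs also differed in a feature that the choice of genes did not use. ZFP36 protein binds the sequence UAUUUAU in 3' untranslated regions. In the longest annotated region of each gene this motif occurred 4 times in Ier3 (613 bases), 3 times in Dusp1 (690 bases) and in Zfp36 itself (774 bases), and 2 times in Nfkbia (512 bases) and in Tnfaip3 (1821 bases). None was found in Nfkbiz, Bcl3, Nfkb1, Nfkb2 or Relb. Of 14534 genes tested with such a region, 29.7% held at least 1 match and 4.05% held 3 or more. Of the 5 regulators with a match, 4 rose in Luc and 5 fell in PC2 against Luc, and of the 5 without a match, 5 rose in Luc and 2, Nfkbiz and Nfkb1, fell in PC2 against Luc. Over all genes tested 31.1% rose in Luc and 18.6% fell in PC2 against Luc, and a difference between regulators with and without a match was not tested.

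Other genes of the pathways were read from lists. For comparison with the counts that follow, 31.1% of all genes tested rose and 27.7% fell in Luc against Non surgery. For PC2 against Luc these shares were 16.1% and 18.6%. Among 10 other MAPK phosphatases, 6 rose and 2 fell in Luc against Non surgery, and 3 rose and 3 fell in PC2 against Luc, with medians of 0.44 and 0.073. Dusp5, an ERK phosphatase of the nucleus, moved in the directions of Dusp1: 5.7 ± 0.322 CPM in PC2, 13.3 ± 1.61 CPM in Luc and 3.97 ± 0.676 CPM in Non surgery libraries (SD, n = 3 each). It rose 3.35-fold in Luc (adjusted p = 5.24e-09) and fell 2.33-fold in PC2 against Luc (adjusted p = 9.21e-07). PC2 libraries stood 1.44-fold above Non surgery for Dusp5, against 3.49-fold for Dusp1. Dusp4 rose 1.84-fold in Luc and fell 1.6-fold in PC2 against Luc, and Dusp6 rose 1.58-fold and fell 1.1-fold. Dusp2 rose 2.03-fold in Luc and had a log2 fold change of -0.24 in PC2 against Luc (adjusted p = 0.137).

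MAPK regulators other than phosphatases mostly rose in Luc. Of 10 genes tested (Sprouty, SPRED, Errfi1 and Gadd45), 7 rose and 1 fell in Luc against Non surgery, none of them 2-fold. In PC2 against Luc 1 rose and 3 fell, with a median of -0.043. Errfi1, an inhibitor of the EGF receptor, rose 1.8-fold in Luc, and Spry2 and Spry4 rose 1.54-fold and 1.68-fold. In PC2 against Luc, Spry1, Spry2 and Spry4 had log2 fold changes of -0.0017, 0.038 and -0.051, which did not pass.

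The genes of the kinases changed by less than 2-fold. Of 13 genes of the IkB kinase complex and its adaptors, 2 rose and 5 fell in Luc against Non surgery, with none changed 2-fold. In PC2 against Luc 0 rose and 4 fell. Chuk, a catalytic subunit, fell 1.12-fold in PC2 against Luc, and Map3k7, a kinase upstream of the complex, fell 1.16-fold in Luc. Ikbkb, the main catalytic subunit of canonical signalling, rose 1.13-fold in Luc, and Ikbkg, the scaffold, fell 1.15-fold. Of 5 other subunit and inhibitor genes, Rela rose 1.17-fold and Nfkbie 1.44-fold in Luc, while Nfkbib fell 1.33-fold. Rel had 27.2 ± 1.69 CPM in PC2 and 35.1 ± 2.04 CPM in Luc libraries and fell 1.29-fold between them (adjusted p = 0.000253). Of 18 MAPK cascade kinases, 2 rose and 11 fell in Luc, with none changed 2-fold, and 4 rose and 5 fell in PC2 against Luc. Mapk14, the p38 kinase that Dusp1 inactivates, fell 1.2-fold in Luc (adjusted p = 2.55e-06), and Mapk3, an ERK gene, rose 1.31-fold. Mapk8, a JNK gene, fell 1.19-fold in PC2 against Luc.

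Of 13 further inhibitors of NF-kB and cytokine signals, 4 rose and 4 fell in Luc, near the shares of all genes tested (31.1% and 27.7%). In PC2 against Luc 0 rose and 5 fell, against 16.1% and 18.6% of all genes. Socs3, an inhibitor of receptors of the Il6 family, stood apart: it had 85.96 ± 1.67 CPM in PC2, 155.3 ± 1.98 CPM in Luc and 35.5 ± 1.43 CPM in Non surgery libraries. It rose 4.38-fold in Luc (adjusted p = 1.31e-16) and fell 1.81-fold in PC2 against Luc (adjusted p = 9.39e-11). Socs1 rose 2.72-fold in Luc and had a log2 fold change of 0.23 in PC2 against Luc (adjusted p = 0.111). Tnip2 rose 1.55-fold in Luc while Tnip1 fell 1.14-fold, and Cyld fell 1.16-fold in PC2 against Luc.

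In the noncanonical pathway, which processes the Nfkb2 product, 8 of 11 genes rose and 1 fell in Luc, and 2 rose and 2 fell in PC2 against Luc. Map3k14, its kinase, rose 1.5-fold in Luc, and the receptors Cd40 and Ltbr 1.45-fold and 1.24-fold. Traf3, which holds Map3k14 in check, had a log2 fold change of 0.054 in Luc (adjusted p = 0.386). Tnfsf13b, a B cell survival factor, rose 2.66-fold in Luc and had a log2 fold change of -0.041 in PC2 against Luc (adjusted p = 0.841). Tnfsf11, the RANK ligand that drives osteoclast formation, had 6.53 ± 0.867 CPM in PC2, 10.7 ± 0.361 CPM in Luc and 3.47 ± 0.138 CPM in Non surgery libraries. It rose 3.08-fold in Luc (adjusted p = 5.93e-09) and fell 1.64-fold in PC2 against Luc (adjusted p = 9.23e-05).

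The relatives of Zfp36 changed less than it did. Zfp36l1 rose 1.88-fold and Zfp36l2 1.48-fold in Luc. In PC2 against Luc, Zfp36l2 fell 1.18-fold (adjusted p = 7.53e-05), while Zfp36l1 had a log2 fold change of -0.027 ± 0.069 (adjusted p = 0.798). Cnot1, the scaffold of the deadenylase complex that Zfp36 recruits, fell 1.11-fold in Luc and 1.33-fold in PC2 against Luc.

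Upstream ligands and receptors went both ways. Of 14 genes, 5 rose and 5 fell in Luc, and 1 rose and 5 fell in PC2 against Luc. Of all genes tested, 31.1% rose and 27.7% fell in Luc, and 16.1% rose and 18.6% fell in PC2 against Luc. Tnf, a main inducer of this pathway, had 3.68 ± 0.0854 CPM in PC2, 3.48 ± 0.303 CPM in Luc and 5.68 ± 0.362 CPM in Non surgery libraries, and fell 1.63-fold in Luc (adjusted p = 0.000251). Il1b, the inducer of the same pathway through the Il1 receptor, had 31.8 ± 0.71 CPM in PC2, 65.8 ± 2.84 CPM in Luc and 16.25 ± 1.39 CPM in Non surgery libraries. It rose 4.05-fold in Luc (adjusted p = 3.04e-14) and fell 2.07-fold in PC2 against Luc (adjusted p = 5.41e-10). Il1a fell 3.31-fold and the receptor subunit gene Il1rap 2.4-fold in Luc. The receptors Tnfrsf1a and Il1r1 rose 1.46-fold and 1.56-fold in Luc, and Il1r1 rose a further 1.15-fold in PC2 against Luc.

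Of 16 NF-kB target genes tested, 11 rose and 3 fell in Luc, and 1 rose and 12 fell in PC2 against Luc. At least 2-fold, 6 of the 16 rose and 2 fell in Luc, beside 1648 and 1104 of all 17478 genes tested. In PC2 against Luc 6 fell at least 2-fold, beside 2% of all genes. The neutrophil chemokine gene Cxcl2 averaged 2.78 ± 0.553 CPM in PC2, 42.9 ± 2.04 CPM in Luc and 1.1 ± 0.0305 CPM in Non surgery libraries, and Cxcl1 averaged 6.15 ± 1.56 CPM in PC2, 17.9 ± 1.08 CPM in Luc and 0.337 ± 0.129 CPM in Non surgery libraries. Il6 was 6.87-fold higher in Luc and 4.56-fold lower in PC2 against Luc. The adhesion gene Icam1 rose 1.15-fold in Luc and fell 1.13-fold in PC2 against Luc. Vcam1 and Sod2, also targets, fell 2.67-fold and 2.24-fold in Luc, and Sod2 rose 1.21-fold in PC2 against Luc. The immediate-early genes are mostly switched on within minutes of a stimulus. Of 18, 15 rose and 1 fell in Luc with a median of 1.64, and 1 rose and 16 fell in PC2 against Luc with a median of -0.60. Beside both lists, 31.1% of all genes tested rose and 27.7% fell in Luc. The shares for PC2 against Luc were 16.1% and 18.6%. Fos averaged 346.7 ± 8.15 CPM in PC2, 717.9 ± 11 CPM in Luc and 18.9 ± 0.58 CPM in Non surgery libraries, and Fosb 207.3 ± 3.38 CPM in PC2, 551.4 ± 28.5 CPM in Luc and 2.17 ± 0.341 CPM in Non surgery libraries. In PC2 against Luc, Egr1, Junb and Ier2 fell 2.17-fold, 1.82-fold and 1.34-fold, and Atf3 fell 2.76-fold.

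**Figure D4:**
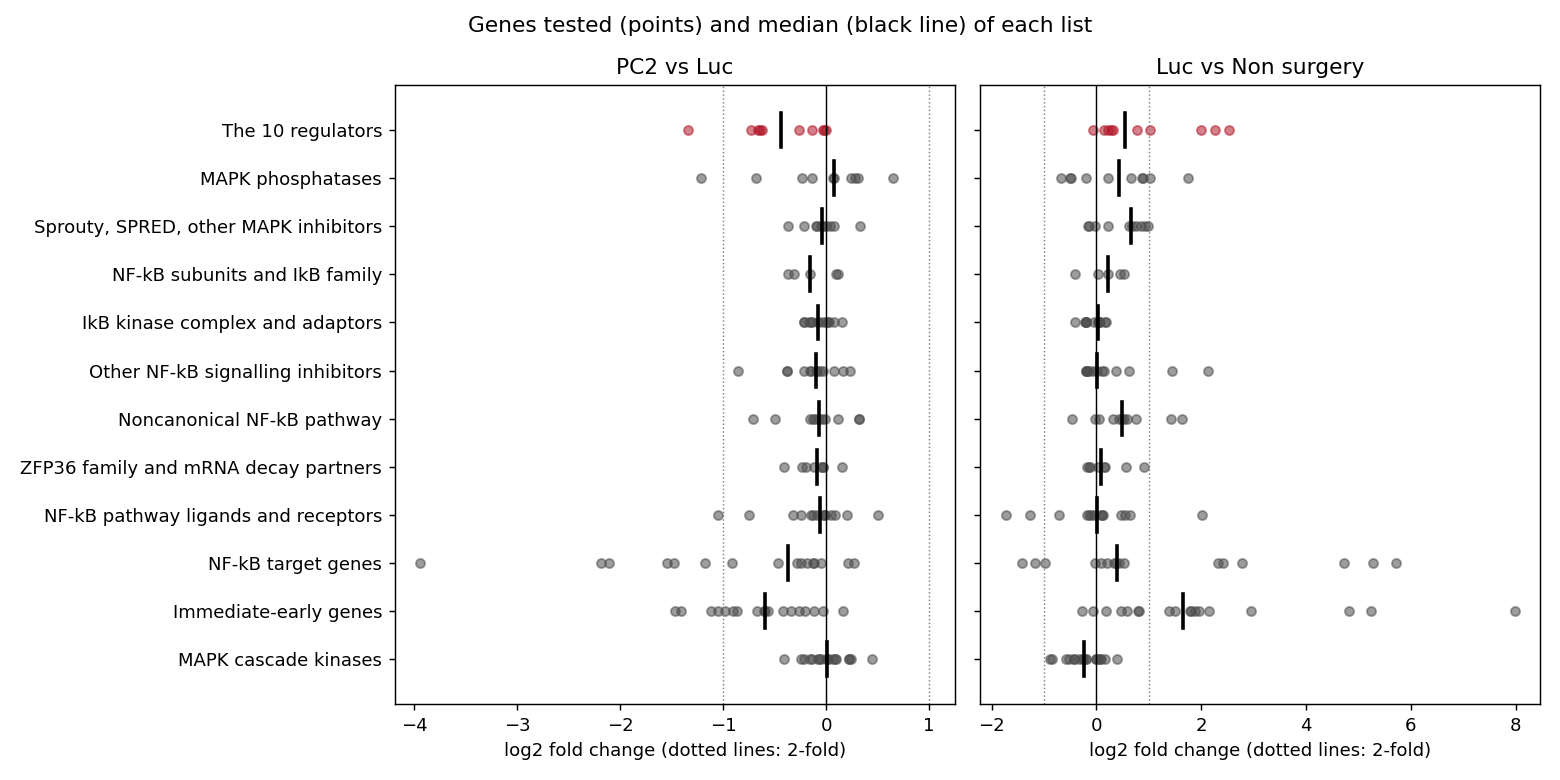
Log2 fold changes (horizontal axes) of the 10 regulators (red points) and of the genes tested in each pathway list (grey points), with list medians as black lines, for PC2 against Luc on the left and Luc against Non surgery on the right. The kinase and IkB kinase lists lie within the 2-fold lines in both panels, and the immediate-early genes have medians of -0.60 and 1.64.

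Markers of tissues and cells in the joint moved with the groups, and none was at 0. The summed level of 10 skeletal muscle genes was 29100 to 29190 CPM in PC2, 24800 to 25240 CPM in Luc and 57760 to 59970 CPM in Non surgery libraries. Fibroblast and synovium genes, 6 in number, summed to 23850 to 24210 CPM in PC2, 20320 to 20930 CPM in Luc and 5884 to 6454 CPM in Non surgery. For 8 chondrocyte genes the sums were 6892 to 7003 CPM in PC2, 4377 to 4459 CPM in Luc and 695.9 to 791.4 CPM in Non surgery. All 8 chondrocyte and all 6 fibroblast and synovium genes rose in Luc, against 31.1% of all genes tested. All 10 muscle genes fell, against 27.7% of all genes. The part of these tissue markers in the rises of the regulators was not tested.

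Leukocyte and vessel markers are set beside the falls in PC2. Macrophage genes, 7 in all, summed to 763 to 769.7 CPM in PC2, 791.5 to 796.9 CPM in Luc and 747.6 to 761.5 CPM in Non surgery libraries. Neutrophil genes summed to 10810 to 10960 CPM in PC2, 9726 to 10280 CPM in Luc and 12110 to 12500 CPM in Non surgery. B cell genes summed to 164.2 to 168.2 CPM in PC2, 227.5 to 231.7 CPM in Luc and 111.1 to 119.1 CPM in Non surgery, and endothelial genes to 359 to 363.2 CPM in PC2, 451.8 to 455.7 CPM in Luc and 445.5 to 475.1 CPM in Non surgery. The macrophage and B cell sums were highest in Luc libraries, lower in PC2 and lowest in Non surgery, with no overlap. Dusp1, Zfp36, Nfkbiz, Ier3 and Nfkb1 had the same order. The macrophage genes did not move together. Of the 7, 3 rose and 2 fell in Luc against Non surgery, with a median log2 fold change of -0.056. Against Luc, 1 rose and 3 fell in PC2. All 6 B cell and all 5 endothelial genes fell in PC2 against Luc, as did 18.6% of all genes tested. The 5 mast cell and eosinophil genes summed to 50.6 to 56.1 CPM in PC2, 859.4 to 939 CPM in Luc and 349.4 to 377.1 CPM in Non surgery, with the eosinophil genes Epx and Prg2 lower in PC2 (log2 fold changes -5.11 and -4.34) and the other 3, of mast cells, higher. The part of these markers in the falls of the regulators was not tested.

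T cell genes summed to 30.6 to 32.9 CPM in PC2, 22.1 to 24.2 CPM in Luc and 49.0 to 51.9 CPM in Non surgery. Osteoblast and osteocyte genes were at 1889 to 1912 CPM in PC2, 1883 to 1921 CPM in Luc and 602.9 to 630.3 CPM in Non surgery. Adipocyte genes had 418.7 to 427.3 CPM in PC2, 254.6 to 280.7 CPM in Luc and 305.4 to 320.2 CPM in Non surgery, and erythroid genes 12750 to 13290 CPM in PC2, 11650 to 13870 CPM in Luc and 20930 to 22330 CPM in Non surgery.

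Likeness of pattern across the 9 libraries was measured as the Euclidean distance between log2 CPM centred on each gene's mean. Levels were not scaled to equal spread, so genes that changed little lie close to each other whatever their pattern. Nfkb1 and Nfkb2 were closest (0.231), with Relb and Bcl3 at 0.266 and 0.289 from Nfkb1. Of these, Nfkb1 alone fell in PC2 against Luc. Zfp36 and Dusp1 were 0.355 apart, and Tnfaip3 and Ier3 0.435. Nfkbiz was at least 1.28 from each of the other regulators. Outside the 10, among 12224 genes with a mean of at least 5 CPM, the patterns nearest to Zfp36 were those of Igsf10, Cplx2 and the microfibril gene Fbn1 (0.187 to 0.266), and nearest to Dusp1 those of Antxr1, Igsf10 and Lyz1 (0.304 to 0.364). Nearest to Nfkbiz were Hmcn1, Apold1 and the Il6 family cytokine gene Osm (0.27, 0.351 and 0.389). Osm had 15.6 CPM in PC2, 33.5 CPM in Luc and 9.36 CPM in Non surgery libraries on average. Nearest to Ier3 were the interferon-stimulated gene Oasl2 and the MHC class II genes H2-Aa and H2-Eb1 (0.226, 0.235 and 0.263). The libraries of a group share 1 RNA mixture, so these distances rest on 3 mixtures.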

How the data were processed

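RNA from whole mouse knee joints was sequenced in 9 libraries, 3 technical repeats of 1 RNA mixture for each of PC2, Luc and Non surgery. Per the files themselves, the authors deposited unnormalized whole-number counts for each Ensembl ID, and HISAT2, HTSeq, DESeq2 and mm10 were named without versions in the submitters' processing notes. No source used here gives the annotation release or strand setting. The 5 HTSeq summary lines (7.29 to 9.25% of reads outside genes, 5.72 to 6.65% ambiguous) stayed out of totals and tests. Names, positions, exon lengths and 3' untranslated regions came from GENCODE M21 (GRCm38), which held 53274 of 53379 IDs; where IDs shared a symbol it stayed with the most abundant.

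Counts were tested with edgeR 4.0.16 in R 4.3.3 in 1 quasi-likelihood fit of all libraries, with TMM factors and filterByExpr (minimum count 10), two-sided, with Benjamini-Hochberg adjustment over 17478 genes. Each standard error was the size of the log2 fold change divided by the root of F. On simulated PC2 against Luc counts (17237 genes), 64% of genes changed 1.5-fold, 84% changed 2-fold and 100% changed 4-fold or 8-fold were recovered, and 14 unchanged genes were called. Pairs of libraries within a group differed by more than counting noise (chi-square per degree of freedom 3.94 to 8.67), so none was a second copy.

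The 10 genes and the lists were chosen with earlier results of these data known. Named besides them by rule are the first 4 genes of each list, at most 2 genes a direction with the largest changes past 2-fold, and the 3 nearest patterns of each regulator that changed 2-fold; some items the rule names are not reported here. Alternatives were median-of-ratios factors, library size only, totals without muscle and mitochondrial genes, no filter, DESeq2 1.42.0, only the groups compared, a replicate block, and leaving out each library.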

Additional observations from a re-analysis of the deposited data

How the results depend on the processing

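The counts of regulators that rose or fell, and of all genes called, stayed within 1.5 times the reported count in all 16 alternatives. For Luc against Non surgery, 3 regulators in place of 4 rose at least 2-fold, without Ier3, with median-of-ratios factors, with DESeq2, with only the 2 groups compared, without Non surgery replicate 1 and without Luc replicate 3. Of 480 recomputed log2 fold changes of regulators, 446 kept direction and side of the threshold, 21 lost the call, 4 gained it and 9 changed sign, none of those 9 past the threshold. The sign changes were Nfkbia for Luc against Non surgery with library size only (0.10), and, for PC2 against Luc, Bcl3 with median-of-ratios factors (0.0070), totals without muscle and mitochondrial genes (0.0059), DESeq2 (0.0073), without Luc replicate 3 (0.026) and without PC2 replicate 2 (0.028), Nfkb2 without PC2 replicate 2 (0.0050), and Relb without Luc replicate 2 (0.0099) and without PC2 replicate 3 (0.042). Across the alternatives, ranges for PC2 against Luc were -0.035 to 0.028 for Bcl3, -0.082 to 0.0050 for Nfkb2 and -0.076 to 0.042 for Relb. The cause was not tested. All calls lost were of Nfkb1, Nfkb2 or Relb. The calls gained were of Tnfaip3 and Nfkb2 for PC2 against Non surgery. Library size only moved the median log2 fold change of all genes for Luc against Non surgery to 0.185, against 0.025, and the split of 2-fold calls to 2065 higher and 824 lower, against 1648 and 1104; for PC2 against Non surgery it gave 2121 and 834, against 1718 and 1142. With the replicate block, 9 regulators rose for Luc against Non surgery, 7 fell for PC2 against Luc, and 7 rose and 1 fell for PC2 against Non surgery, as without it, and 10327, 6192 and 11019 genes passed, against 10279, 6058 and 10952. Same-numbered libraries deviated with correlations of -0.0274 to 0.0567, so the numbers do not pair them. Counts for the smaller lists moved by over 1.5 times in 124 of 4416 recomputations.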
